A study of Mus musculus with 11 samples.

Results

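The genes described here are 40 genes of the hypoxia response and of glycolysis, among the 36529 genes with a row in the count files of 11 BV2 samples. They were matched by gene symbol to a list of the HIF pathway, its well-known targets, the glucose and lactate transporters and the enzymes from glucose to lactate, and all 40 symbols were found. The list was drawn up with the measured values in view, since these genes stood apart between the untreated cells of the 2 experiments, so the values in the untreated cells are given as a description and no test is given for them. BV2 is a transformed line of mouse microglia (strain C57BL/6), grown here in RPMI 1640 with serum. In the first experiment, 3 samples received the amino-terminal fragment nApoE4 1–151 at 25 μg/ml for 5 h, and 3 untreated samples labelled ControlA served as their controls. In the second, 2 samples received nApoE3 1–151 at the same dose for the same time, and 3 untreated samples labelled ControlB were the controls. The fragments carry a His tag, hold residues 1 to 151 of apolipoprotein E and differ by a single amino acid. The labels name a PBS vehicle and the methods of the study name conditioned media for untreated cells, and which was used here is not known. Every sample comes from the 1 cell line. The study describes its transcriptome values as averages of 3 independent measurements or trials, without saying whether these were separate cultures. The nApoE3 group here holds 2 samples. P-values therefore measure the spread between these samples, which may be technical in part. Fragment and experiment cannot be told apart wherever the 2 fragments are compared.

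Hypoxia-inducible factors, the HIFs, are pairs of an alpha subunit (Hif1a, or Epas1 for HIF-2) and a stable beta subunit. With oxygen present, the prolyl hydroxylases encoded by Egln1 and Egln3 mark the alpha subunit for destruction by the VHL ligase, and with little oxygen the alpha subunit lasts, enters the nucleus and binds short elements with the core ACGTG or GCGTG. Its targets include Egln1 and Egln3 themselves, the glucose transporter Slc2a1, most glycolytic enzymes and genes of mitochondrial turnover and collagen maturation. In macrophages and microglia, inflammatory activation also raises Hif1a transcripts and glycolysis.

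The windows before 5 members are shown because they hold the core element and belong to the 4 members with a sequence that fell furthest with nApoE4, and to Slc2a1, which moved in opposite directions with the fragments. Each is the 250 bases before the RefSeq transcription start on GRCm38.p6, written 5′ to 3′ on the strand of the gene, and capitals mark ACGTG or GCGTG on either strand, with overlapping matches run together. CACGTG reads as ACGTG on both strands and was taken once.
Ankrd37: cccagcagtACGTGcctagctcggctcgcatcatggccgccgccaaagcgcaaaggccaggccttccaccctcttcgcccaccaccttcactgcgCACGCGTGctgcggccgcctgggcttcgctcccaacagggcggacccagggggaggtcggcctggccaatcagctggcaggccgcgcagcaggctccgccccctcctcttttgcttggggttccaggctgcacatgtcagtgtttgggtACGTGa
Adm: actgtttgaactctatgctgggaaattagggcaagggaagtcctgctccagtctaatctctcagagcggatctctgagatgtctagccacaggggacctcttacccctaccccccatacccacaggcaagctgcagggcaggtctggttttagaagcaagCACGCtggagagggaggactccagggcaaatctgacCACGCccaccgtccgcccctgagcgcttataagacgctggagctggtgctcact
Egln3: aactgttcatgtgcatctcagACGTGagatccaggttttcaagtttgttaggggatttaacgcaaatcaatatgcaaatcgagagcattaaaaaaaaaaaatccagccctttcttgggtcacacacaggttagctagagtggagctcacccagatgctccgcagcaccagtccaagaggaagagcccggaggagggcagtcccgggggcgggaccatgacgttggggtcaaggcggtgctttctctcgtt
Bnip3: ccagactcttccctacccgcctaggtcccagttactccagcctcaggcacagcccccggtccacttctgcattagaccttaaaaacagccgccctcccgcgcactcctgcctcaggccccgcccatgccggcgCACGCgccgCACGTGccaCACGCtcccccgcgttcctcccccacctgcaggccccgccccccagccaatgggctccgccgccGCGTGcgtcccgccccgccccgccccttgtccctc
Slc2a1: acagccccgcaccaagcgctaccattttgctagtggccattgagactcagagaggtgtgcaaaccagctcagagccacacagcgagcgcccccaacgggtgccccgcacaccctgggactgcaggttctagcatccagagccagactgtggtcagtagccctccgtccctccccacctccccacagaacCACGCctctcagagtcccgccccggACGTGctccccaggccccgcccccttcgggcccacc
The Ankrd37 window lies at chr8:45999851-46000100 (minus strand), with 3 marked stretches, the closest starting 6 bases before the start site. The annotated gene itself spans chr8:45996908-46000414, so this start site lies inside it and the window overlaps the annotated gene body. The windows of Adm at chr7:110627407-110627656 (plus strand) and of Slc2a1 at chr4:119108495-119108744 (plus strand) hold 2 each. Egln3, at chr12:54203875-54204124 (minus strand), has 1, which starts 229 bases away, while Bnip3, at chr7:138909507-138909756 (minus strand), has 4 within 117 bases. Of the 40 members, 35 had a sequence, and Epas1, Bnip3l, Ndrg1, Plod2 and Slc2a3 had none. At least 1 of the 2 motifs was present before 32 of the 35 members (91.4%), against 57.9% of the 11376 tested genes with a sequence and 41.5% of all 27025 genes in the table. ACGTG, with or without GCGTG, was present before 62.9% of the members, against 24% of the tested genes. GCGTG, with or without ACGTG, was present before 65.7% of the members, against 46.7%. Counted by window, 81.5% of the 54 windows of members held a motif, against 52% of 14597 for tested genes and 38.6% of all 32851. The members were listed as HIF targets, so this share describes them and is no test, and a match is not a measured binding site. Gpi1, Tpi1 and Eno2 had neither motif in these bases.

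Depth ranged from 39732710 to 44162511 counts on genes in the nApoE4 experiment and from 55809688 to 69768666 in the nApoE3 experiment. Values below are counts scaled to library size (CPM) scaled with TMM factors, and 3 counts, taken as the floor, stand for 0.043 to 0.0755 CPM. The floor covers counting error only. ControlA replicate 2 differed most from its group, with a chi-square per degree of freedom of 47.9 against replicate 3, compared with 3.15 for the closest pair of ControlB. It had the highest level of its group for 24 of 39 members (61.5%), against 41.4% of all genes tested. Of the 14 microglia and macrophage markers, 10 or 11 reached 1 CPM in a group, but P2ry12 was at 0 in all 11 samples and Aif1 and Cx3cr1 stayed below 1 CPM. The 5 endothelial markers summed to 150 to 177 CPM in ControlA, 62.8 to 72.0 with nApoE4, 64.2 to 66.5 in ControlB and 43.4 to 48.1 with nApoE3, highest in ControlA as most members were. Kdr, a receptor of VEGF, made up nearly all of that sum, and Cldn5 was at 0. Astrocyte markers summed to at most 7.02 CPM, almost all from Slc1a2, and oligodendrocyte markers to at most 25.5, with Mog at 0. Neuron and fibroblast markers summed to less than 1 CPM. The part of these markers in the results was not tested.

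With nApoE4, the transcripts of nearly the whole pathway fell, although Hif1a itself rose 2.41-fold. Of the 38 members with enough counts to test, 34 fell, 3 rose (Hif1a, Pfkfb3 and Pfkfb4) and Hk3 did not pass the test, which was edgeR's quasi-likelihood test with Benjamini-Hochberg adjustment over all 14240 genes at 0.05. Over all genes tested, 28.6% fell and 28.6% rose. A fall of at least 2-fold was found for 14 members, against 7.46% of all genes, and only Hif1a rose as much, against 10.2%. The median log2 fold change was -0.73 over the members. ControlA is the reference here and also part of the contrast that led to the list, so a high level in ControlA enters these falls. The counts therefore describe the members and are no test of the list. Without ControlA replicate 2, 34 members fell and 3 rose. In bulk RNA, a change in the level per cell and a change in the make-up of the culture cannot be told apart. P4ha2 and Eno2 had too few counts for this comparison.

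With nApoE3, members of the same list moved in both directions. Of 38 members tested, 19 rose, 15 fell and 4 did not pass, against 33.1% higher and 34.6% lower over the 14817 genes tested. The share that fell lies near the background. At least 2-fold, 2 rose (Slc2a1 and Pfkfb3) and 3 fell (Epas1, P4ha2 and Mxi1). Over all genes, 9.6% rose and 6.57% fell by that much, so these counts also lie near the background. The median over the members was 0.07 on the log2 scale. The spread between samples was small in this experiment (a biological coefficient of variation of 0.0262, against 0.0838 in the nApoE4 experiment), and a rise of 1.05-fold passed the test. When all 11 samples shared 1 estimate of the spread, 13 members rose and 13 fell.

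Across both experiments, 16 of the 40 members fell with nApoE4 and rose with nApoE3, which 1.85% of the 13750 genes tested in both did. The count was 10 without nApoE3 replicate 1 and also 10 when all 11 samples shared 1 fit, since the small rises of Bnip3, Vegfa, Higd1a, Eno1, Pkm and Ldha then did not pass. It was 11 without ControlB replicate 1 or 2. Another 14 fell with both, against 22.3% of those genes. Hif1a and Pfkfb3 rose with both. The controls used here are those whose difference led to the list, and a high level in ControlA enters both that difference and the response to nApoE4.

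**Figure D1:**
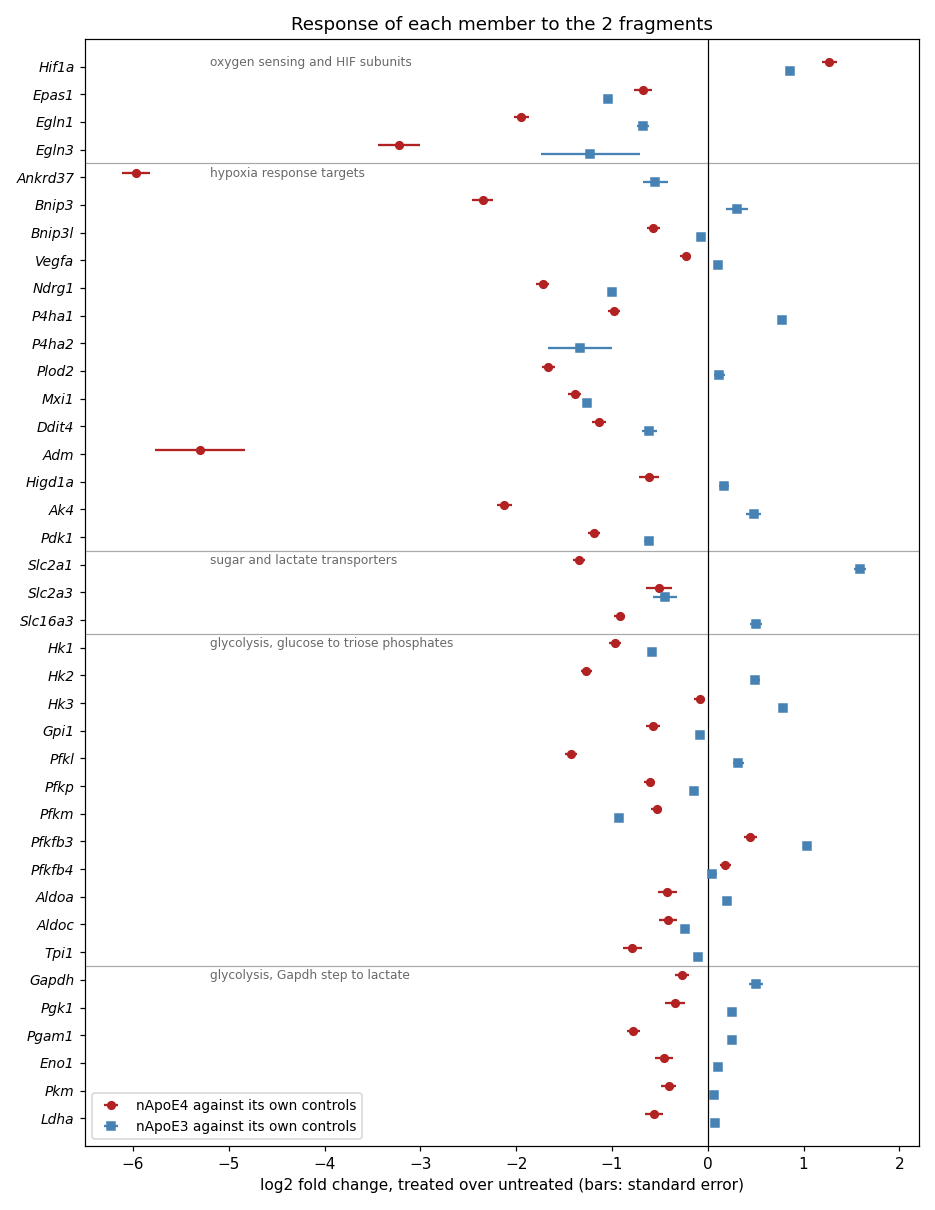
Log2 fold change of each tested member with nApoE4 (circles) and nApoE3 (squares) against its own untreated samples, in order of role; bars are approximate standard errors. Nearly all circles lie to the left of 0, and Ankrd37 lies furthest at -5.97, while the squares fall on both sides, up to 1.59 for Slc2a1.

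In the oxygen sensing group, the HIF-1 subunit rose with both fragments, Egln1 fell with both and Egln3 fell with nApoE4. Hif1a stood at 31.2, 27.0 and 33.2 CPM in ControlA, 73.7, 72.2 and 73.7 with nApoE4, 45.4, 46.5 and 47.5 in ControlB and 81.7 and 87.1 with nApoE3. Treated samples were above their controls in both experiments, with no overlap. The log2 fold change was 1.27 ± 0.08 with nApoE4 (SE, adjusted p = 6.41e-07) and 0.85 ± 0.04 with nApoE3 (adjusted p = 5.32e-10), and the difference of 0.40 ± 0.09 passed the test (adjusted p = 0.00639). Epas1, the alpha subunit of HIF-2, went the other way. Its levels were 50.8, 43.6 and 55.8 CPM in ControlA, 28.9, 32.4 and 32.1 with nApoE4, 71.8, 77.4 and 73.4 in ControlB and 35.2 and 37.0 with nApoE3. It fell by 1.60-fold with nApoE4 (adjusted p = 0.000185) and by 2.06-fold with nApoE3 (adjusted p = 2.64e-10), and both treated groups ended near 30 CPM, between 28.9 and 37.0. Egln1, the main hydroxylase, was at 207, 228 and 197 CPM in ControlA, 58.0, 52.4 and 53.0 with nApoE4, 118, 117 and 121 in ControlB and 82.1 and 66.9 with nApoE3. No treated sample reached a control of its experiment, and the fall was 3.85-fold with nApoE4 (adjusted p = 2.41e-08) and 1.60-fold with nApoE3 (adjusted p = 8.14e-07). Egln3, the more strongly hypoxia-inducible hydroxylase, was at 4.95, 5.22 and 4.09 CPM in ControlA, 0.699, 0.409 and 0.403 with nApoE4, 0.184, 0.339 and 0.284 in ControlB and 0.172 and 0.0531 with nApoE3. Outside ControlA it was scarcely expressed, with 30 counts or fewer in each of the other 8 samples. It fell 9.31-fold with nApoE4 (adjusted p = 1.3e-06). With nApoE3 its log2 fold change of -1.23 ± 0.51 did not pass (adjusted p = 0.0519).

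All 13 tested hypoxia response targets fell with nApoE4, and 5 of 13 rose and 6 fell with nApoE3. Over all genes, 28.6% fell with nApoE4, and 33.1% rose and 34.6% fell with nApoE3, so the nApoE3 counts lie near the background. Of the 5 that rose, 2 (P4ha1 and Ak4) still did so without nApoE3 replicate 1 and in the fit of all 11 samples, and 3 without ControlB replicate 1 or 2. Summed over the 14 targets, the level was 1774 ± 124 CPM in ControlA, 674 ± 22.3 with nApoE4 (SD, n = 3 each), 824 ± 22.2 in ControlB (n = 3) and 750 ± 75.8 with nApoE3 (n = 2). The most extreme member was Ankrd37, an ankyrin-repeat protein known mainly as a HIF-1 target. Its levels were 85.7, 101 and 80.4 CPM in ControlA, 1.26, 1.20 and 1.79 with nApoE4, 6.32, 6.80 and 7.06 in ControlB and 5.43 and 3.79 with nApoE3. ControlA held the highest level of the 4 groups and the nApoE4 samples the lowest, a fall of 62.7-fold (log2 -5.97 ± 0.14, adjusted p = 1.47e-09). With nApoE3 it fell 1.46-fold (adjusted p = 0.00242). Adm, which encodes the vasodilator peptide adrenomedullin, was low everywhere, at 1.08, 0.914 and 1.20 CPM in ControlA, 0, 0.0481 and 0.0252 with nApoE4, 0.0850, 0.0969 and 0.0532 in ControlB and 0.103 and 0.0885 with nApoE3. In the nApoE4 samples it had 0, 2 and 1 counts, at or under the floor, so it was at least 14.7-fold lower than in ControlA (adjusted p = 8.34e-06). It had 3 to 6 counts in each sample of the nApoE3 experiment and was not tested there.

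Bnip3 and Bnip3l, which tag mitochondria for autophagy, both fell with nApoE4. Bnip3 was at 373, 444 and 337 CPM in ControlA, 82.0, 69.1 and 74.4 with nApoE4, 64.1, 65.5 and 77.1 in ControlB and 99.95 and 70.6 with nApoE3. All treated samples of the first experiment lay far below ControlA, at a level that overlapped with ControlB, and the fall was 5.10-fold (adjusted p = 8.78e-08). With nApoE3, the groups overlapped, and the rise of 1.24-fold (adjusted p = 0.0318) rested on replicate 1. Bnip3l fell 1.48-fold with nApoE4 (adjusted p = 7.11e-05), and its log2 fold change with nApoE3 was -0.07 ± 0.03 (adjusted p = 0.087). Ndrg1, a stress-responsive gene of differentiation and lipid handling, was at 225, 239 and 209 CPM in ControlA, 68.9, 67.5 and 66.8 with nApoE4, 44.9, 44.2 and 44.9 in ControlB and 22.8 and 22.1 with nApoE3. The 4 groups formed 4 separate levels. It fell 3.30-fold with nApoE4 (adjusted p = 2.44e-08) and 2.00-fold with nApoE3 (adjusted p = 1.35e-10). Ddit4, the mTORC1 inhibitor also called REDD1, was at 66.9, 71.3 and 61.8 CPM in ControlA, 28.7, 30.3 and 31.8 with nApoE4, 32.0, 31.2 and 36.3 in ControlB and 23.8 and 19.8 with nApoE3. It fell with both fragments, 2.19-fold (adjusted p = 6.62e-07) and 1.53-fold (adjusted p = 1.67e-05). Mxi1, a repressor that competes with Myc for its partner Max, fell with both. Its levels were 181, 193 and 186 CPM in ControlA, 74.6, 65.6 and 72.8 with nApoE4, 154, 154 and 158 in ControlB and 66.4 and 64.1 with nApoE3, and the log2 fold changes of -1.39 ± 0.07 and -1.26 ± 0.03 (adjusted p = 1.09e-07 and 1.72e-12) differed by -0.14 ± 0.08 (adjusted p = 0.207).

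**Figure D2:**
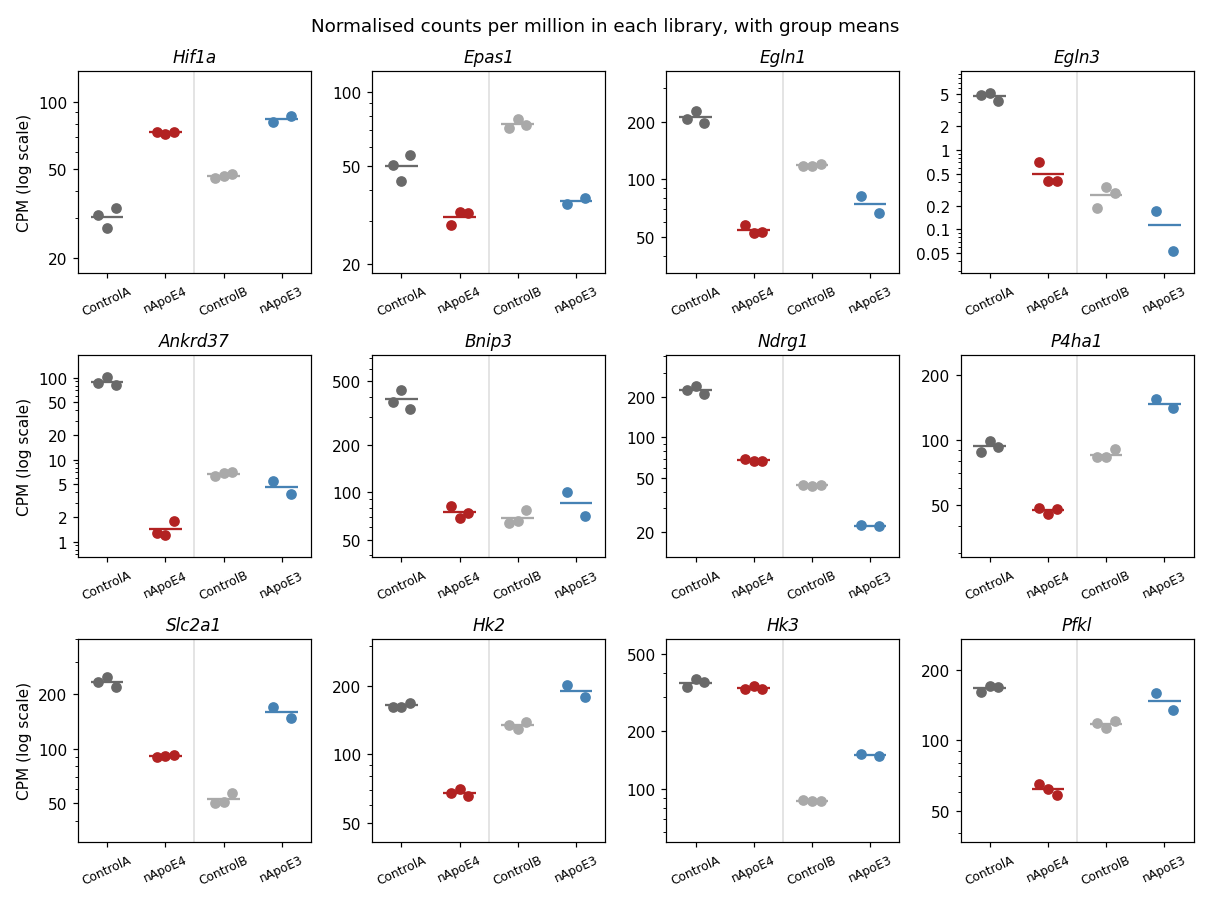
Level of 12 members in each of the 11 libraries (points, CPM on a log axis) with the mean of each group (lines); the vertical line separates the 2 experiments. The axis range differs between panels. Slc2a1, P4ha1, Hk2 and Pfkl fall from ControlA to nApoE4 and rise from ControlB to nApoE3, whereas Egln1, Ndrg1 and Epas1 fall in both.

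Of the collagen-modifying enzymes, P4ha1 had opposite calls with the fragments. P4ha1, a catalytic subunit of collagen prolyl 4-hydroxylase, was at 88.2, 98.6 and 92.8 CPM in ControlA, 48.2, 45.6 and 47.8 with nApoE4, 82.9, 83.3 and 90.2 in ControlB and 154 and 139 with nApoE3. Its untreated levels overlapped between the experiments. It fell 1.97-fold with nApoE4 (adjusted p = 6.8e-07) and rose 1.71-fold with nApoE3 (adjusted p = 1.16e-08). P4ha2, its paralogue, held 4 to 44 counts a sample. Its levels were 0.0939, 0.178 and 0.407 CPM in ControlA, 0.117, 0.168 and 0.126 with nApoE4, 0.623, 0.420 and 0.674 in ControlB and 0.189 and 0.266 with nApoE3, and the fall with nApoE3 was 2.52-fold (adjusted p = 0.00352). Plod2, the lysyl hydroxylase of collagen cross-links, was at 39.0, 40.9 and 38.4 CPM in ControlA, 13.3, 11.5 and 12.3 with nApoE4, 23.8, 24.0 and 24.2 in ControlB and 28.1 and 24.4 with nApoE3. It fell 3.17-fold with nApoE4 (adjusted p = 5.2e-08). With nApoE3 both samples lay above ControlB but the log2 fold change of 0.12 ± 0.05 did not pass (adjusted p = 0.0645).

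Among the remaining targets, Vegfa moved little. This angiogenic growth factor was at 103, 103 and 108 CPM in ControlA, 86.8, 88.8 and 91.8 with nApoE4, 68.3, 64.9 and 69.5 in ControlB and 75.8 and 70.4 with nApoE3, a fall of 1.17-fold with nApoE4 (adjusted p = 0.0056) and a rise of 1.08-fold with nApoE3 (adjusted p = 0.0287). Ak4, a mitochondrial adenylate kinase, moved far more. It stood at 93.7, 90.8 and 86.6 CPM in ControlA, 23.0, 20.2 and 18.8 with nApoE4, 62.2, 63.0 and 63.9 in ControlB and 100.02 and 76.3 with nApoE3. No sample of a treated group overlapped with its controls, and the change was 4.36-fold lower with nApoE4 (adjusted p = 2.25e-08) and 1.39-fold higher with nApoE3 (adjusted p = 0.000181). Higd1a, a protein of the respiratory chain complexes, was at 53.9, 64.5 and 48.6 CPM in ControlA, 37.8, 33.3 and 37.5 with nApoE4, 26.9, 26.7 and 28.01 in ControlB and 32.4 and 29.0 with nApoE3. It fell 1.53-fold (adjusted p = 0.000594) and rose 1.12-fold (adjusted p = 0.00932). Pdk1, the kinase that shuts pyruvate dehydrogenase and so keeps pyruvate from the mitochondria, was at 290.4, 322 and 298 CPM in ControlA, 134, 129.8 and 135 with nApoE4, 168, 169.7 and 169 in ControlB and 119 and 103 with nApoE3. It fell in both experiments, 2.27-fold with nApoE4 (adjusted p = 2.12e-07) and 1.53-fold with nApoE3 (adjusted p = 1.1e-07).

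Slc2a1 and Slc16a3, of the 3 transporters, fell with nApoE4 and rose with nApoE3, and Slc2a3 fell with both. Slc2a1 encodes GLUT1, the basal glucose carrier, and was at 234, 247 and 218 CPM in ControlA, 89.9, 91.5 and 92.0 with nApoE4, 50.1, 50.9 and 57.2 in ControlB and 171 and 147 with nApoE3. The nApoE3 samples rose 3.01-fold above ControlB (log2 1.59 ± 0.06, adjusted p = 2.38e-10), while the nApoE4 samples fell 2.54-fold below ControlA (log2 -1.35 ± 0.06, adjusted p = 1.01e-07). Slc16a3, the lactate exporter MCT4, was at 103, 103 and 97.6 CPM in ControlA, 56.1, 52.7 and 51.3 with nApoE4, 44.2, 45.8 and 46.4 in ControlB and 70.7 and 58.9 with nApoE3. It too fell with nApoE4, 1.89-fold (adjusted p = 8.46e-07), and rose with nApoE3, 1.42-fold (adjusted p = 9.27e-06). Its locus overlaps Csnk1d over 1292 bases, and whether the counting used strand is not given in the sources used here. Slc2a3, the high-affinity carrier GLUT3, was expressed at 2.05 to 3.62 CPM. It fell 1.42-fold with nApoE4 (adjusted p = 0.0101) and 1.36-fold with nApoE3 (adjusted p = 0.00786).

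The enzymes that carry glucose to the triose phosphates fell with nApoE4 in 9 of 12 cases, against 28.6% of all genes. The 2 Pfkfb genes rose, also against 28.6%. With nApoE3, 5 of the 12 rose and 6 fell, against 33.1% and 34.6% of all genes. Without nApoE3 replicate 2, and also in the fit of all 11 samples, 3 of them fell with nApoE3. The 3 hexokinases, which trap glucose as glucose 6-phosphate, behaved differently from each other. Hk2, the inducible form, was at 162, 162 and 168 CPM in ControlA, 67.5, 70.5 and 65.7 with nApoE4, 135, 129 and 139 in ControlB and 202 and 178 with nApoE3. It fell 2.41-fold with nApoE4 (adjusted p = 7.46e-08) and rose 1.41-fold with nApoE3 (adjusted p = 9.03e-07). Hk3, the form of myeloid cells, was at 339, 372 and 358 CPM in ControlA, 331, 344 and 329 with nApoE4, 87.5, 86.4 and 87.4 in ControlB and 153 and 148 with nApoE3. Its nApoE4 samples overlapped with ControlA, with a log2 fold change of -0.09 ± 0.06 (adjusted p = 0.264), and its nApoE3 samples rose 1.72-fold (adjusted p = 5.97e-11). Hk1, the housekeeping form, fell 1.96-fold with nApoE4 (adjusted p = 1.24e-06) and 1.49-fold with nApoE3 (adjusted p = 7.55e-09). On the scale of CPM per kilobase of exon, Hk3 made up 70.4% ± 0.913 of the hexokinase transcripts in ControlA and 83.4% ± 0.414 with nApoE4 (SD, n = 3 each), and 42.0% ± 0.533 in ControlB (n = 3) and 51.3% ± 1.38 with nApoE3 (n = 2). The share of Hk2 went from 20.04% to 10.4% in the first experiment and stood at 39.9% and 40.0% in the second. Exon length here is that of all annotated exons of a gene merged, and the shares depend on that choice.

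Phosphofructokinase, the committed step, also changed its make-up. Pfkl, the liver-type subunit, was at 159.8, 171 and 169 CPM in ControlA, 65.2, 61.6 and 58.3 with nApoE4, 118, 113 and 121 in ControlB and 159.8 and 135 with nApoE3. It fell 2.69-fold with nApoE4 (adjusted p = 6.64e-08) and rose 1.25-fold with nApoE3 (adjusted p = 0.00024). The muscle-type Pfkm fell in both, 1.45-fold and 1.89-fold (adjusted p = 2.99e-05 and 2.34e-10), and the platelet-type Pfkp fell 1.52-fold and 1.10-fold (adjusted p = 1.14e-05 and 0.00366). Per kilobase of merged exons, the share of Pfkl therefore went from 43.7% to 29.9% with nApoE4 and from 43.3% to 57.7% with nApoE3. That of Pfkm went from 32.5% to 41.3% and from 31.4% to 17.8%. The merged exons hold 6675 bases for Pfkl, 13401 for Pfkp and 3340 for Pfkm. The longest coding transcript of Pfkp held only 4071 overlapping windows of 75 bases. The order of the subunits within a group can therefore depend on the length used. The Pfkm locus overlaps Senp1 over 981 bases. Pfkfb3, whose product makes the activator fructose 2,6-bisphosphate and which responds to inflammatory signals, was the enzyme that rose with both. It was at 31.9, 29.7 and 34.5 CPM in ControlA, 44.4, 44.1 and 41.7 with nApoE4, 40.1, 39.8 and 38.4 in ControlB and 81.7 and 80.9 with nApoE3, a rise of 1.36-fold with nApoE4 (adjusted p = 0.000419) and 2.05-fold with nApoE3 (adjusted p = 2.22e-11). Its relative Pfkfb4 rose 1.14-fold with nApoE4 (adjusted p = 0.0209) and had a log2 fold change of 0.05 ± 0.05 with nApoE3 (adjusted p = 0.391).

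**Figure D3:**
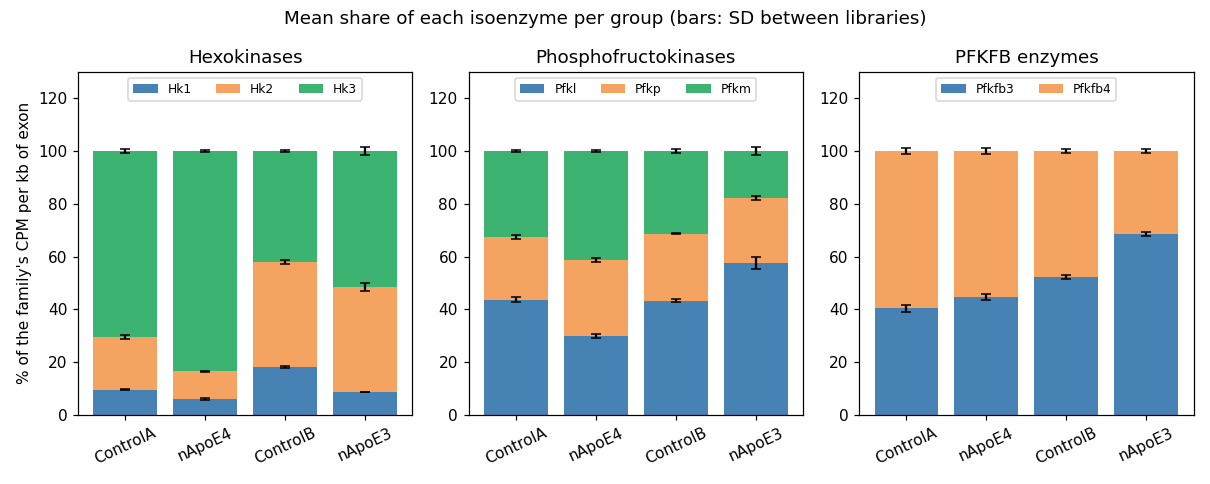
Mean share of each isoenzyme in the CPM per kilobase of exon of its family, in percent, for hexokinases, phosphofructokinases and PFKFB enzymes in the 4 groups; bars are SD between libraries (n = 3, and n = 2 for nApoE3). Exon length is that of all annotated exons of a gene merged, and the shares depend on that choice. Hk3 grows from 70.4% to 83.4% with nApoE4, and Pfkl shrinks from 43.7% to 29.9% with nApoE4 and grows from 43.3% to 57.7% with nApoE3.

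Of the remaining enzymes of this stretch, Gpi1, which turns glucose 6-phosphate into fructose 6-phosphate, was at 1140.0, 1238 and 1158 CPM in ControlA, 827, 793 and 749.8 with nApoE4, 568, 558 and 579.8 in ControlB and 559 and 522 with nApoE3. It fell 1.49-fold with nApoE4 (adjusted p = 8.03e-05), and its change with nApoE3, 1.06-fold lower with overlapping samples, was slight (adjusted p = 0.0266). Aldoa, the main aldolase, was at 2290.3, 2783 and 2247 CPM in ControlA, 1933, 1775 and 1738 with nApoE4, 1582, 1543 and 1631 in ControlB and 1894 and 1778 with nApoE3. The fall with nApoE4 was 1.34-fold (adjusted p = 0.00404) and the rise with nApoE3 1.15-fold (adjusted p = 3.09e-05). Aldoc, the brain-type aldolase, was at 96.8, 121 and 105 CPM in ControlA, 89.1, 78.5 and 73.1 with nApoE4, 41.9, 44.7 and 44.4 in ControlB and 38.6 and 35.8 with nApoE3. It fell 1.33-fold (adjusted p = 0.00448) and 1.18-fold (adjusted p = 0.000388). Tpi1, which interconverts the triose phosphates, fell 1.72-fold with nApoE4 (adjusted p = 0.000137) and 1.07-fold with nApoE3, where the samples overlapped (adjusted p = 0.0411).

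From glyceraldehyde 3-phosphate to lactate, all 6 tested enzymes fell with nApoE4, against 28.6% of all genes. With nApoE3 all 6 rose, by 1.05-fold to 1.42-fold, against 33.1% of all genes. The rises of Gapdh, Pgk1 and Pgam1 passed under every alternative run, but those of Eno1, Pkm and Ldha did not pass without nApoE3 replicate 1, without ControlB replicate 1 or 2 or in the fit of all 11 samples, which left 3 of 6. None of these runs changed how reads shared with other genes were counted. Of the 75-base windows of Gapdh, Pgk1 and Pgam1, 80.3%, 67.5% and 40.6% also occur in other genes. Pgk1, which makes the first ATP of the pathway, was at 1649.7, 2070.2 and 1659 CPM in ControlA, 1539.8, 1327 and 1359 with nApoE4, 760.2, 733 and 778 in ControlB and 950.2 and 868 with nApoE3. It fell 1.27-fold (adjusted p = 0.0176) and rose 1.20-fold (adjusted p = 2.6e-05). Pgam1, the mutase of the next step, was at 462, 507 and 445 CPM in ControlA, 289, 270.0 and 264 with nApoE4, 209, 213 and 225 in ControlB and 265 and 252 with nApoE3. This was the enzyme of the stretch with the largest fall, 1.71-fold (adjusted p = 1.11e-05), and it rose 1.19-fold with nApoE3 (adjusted p = 1.73e-05). Eno1, the main enolase, was at 912, 1081 and 894 CPM in ControlA, 768, 646 and 688 with nApoE4, 467, 459.6 and 482 in ControlB and 539 and 477 with nApoE3. It fell 1.37-fold (adjusted p = 0.00256), and its 1.08-fold rise with nApoE3 (adjusted p = 0.0361) came with overlapping samples. The neuronal enolase Eno2 had 3 counts or fewer in every sample.

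Pkm and Ldha, which make pyruvate and then lactate, were among the most abundant members. Pkm was at 3456, 3866 and 3588 CPM in ControlA, 2928, 2604 and 2672 with nApoE4, 2055, 2048 and 2088 in ControlB and 2228 and 2108 with nApoE3. It fell 1.32-fold with nApoE4 (adjusted p = 0.00172) and rose 1.05-fold with nApoE3 (adjusted p = 0.0203). Ldha was at 2349.5, 2817 and 2301 CPM in ControlA, 1772, 1602 and 1678 with nApoE4, 1511, 1477 and 1538 in ControlB and 1672 and 1525 with nApoE3. It fell 1.47-fold with nApoE4 (adjusted p = 0.000588) and was 1.05-fold higher with nApoE3, with overlap (adjusted p = 0.0473). Gapdh was at 222, 208 and 240.4 CPM in ControlA, 196, 176 and 182 with nApoE4, 25.0, 25.0 and 30.1 in ControlB and 39.5 and 36.3 with nApoE3, a fall of 1.20-fold (adjusted p = 0.0113) and a rise of 1.42-fold (adjusted p = 4.8e-05). Summed over the 19 glycolytic genes, the level was 15630 ± 1380 CPM in ControlA, 11140 ± 627 with nApoE4, 8541 ± 176 in ControlB and 9288 ± 509 with nApoE3.

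Some of these counts are uncertain because copies of the genes share their sequence. Of all 75-base windows of the transcripts, as long as the reads, 80.3% of those of Gapdh also occur in transcripts of 118 other annotated genes. The share was 67.5% for Pgk1, 65.4% for Eno1, 40.6% for Pgam1, 19.6% for Pkm, 18.7% for Bnip3l and 15.3% for Bnip3, and under 10% for the other members. Reads that mapped to several places were tallied apart and made up 11.7% to 13.2% of the reads per sample, and how these reads would divide among Gapdh and its copies was not tested. On the scale of CPM per kilobase of exon, Gapdh stood at 54.0 in ControlA, next to 799 for Pgk1, 727 for Pkm and 752 for Ldha. Aldoa led with 838, and this order too depends on the merged exon lengths. Eno2, P4ha2, Slc2a3 and Adm were each under 1 in every group, as was Egln3 outside ControlA.

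The members are spread over the genome, with some neighbours. On GRCm38.p6, Eno2 (chr6:124760053-124769673), Tpi1 (chr6:124810586-124814158) and Gapdh (chr6:125161852-125166467) lie close together, as do P4ha1 (chr10:59323197-59373304) and Ddit4 (chr10:59949675-59951770). Bnip3 spans chr7:138890836-138909506, Egln3 spans chr12:54178981-54203874, Slc2a1 spans chr4:119108745-119137330 and Hif1a spans chr12:73901324-73947554. The neighbours did not all move alike, since P4ha1 rose with nApoE3 and Ddit4 fell.

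The untreated cells of the 2 experiments differed in most members, which is the contrast the list was chosen on. Of 39 members in the fit, all 3 ControlB samples were below all 3 ControlA samples for 34, above them for 4 (Hif1a, Epas1, Pfkfb3 and P4ha2), and overlapped for P4ha1. Over all 14249 genes, 36% were lower and 38.2% higher without overlap. At least 2-fold, 16 members were lower and P4ha2 was higher, against 12.4% and 5.43% of all genes. The median log2 difference, ControlB minus ControlA, was -0.83 over the members and about 0 (-0.0096) over all genes. The widest gaps were in Egln3 (17.9-fold), Ankrd37 (13.4-fold), Adm (13.2-fold), Gapdh (8.47-fold), Bnip3 (5.65-fold), Ndrg1 (5.08-fold), Slc2a1 (4.46-fold) and Hk3 (4.13-fold), all lower in ControlB. The gap of Gapdh carries the uncertainty from shared sequence described above. Pgk1, Pgam1, Gpi1 and Eno1 were 2.07-fold to 2.40-fold lower, and Slc16a3, Aldoc, Higd1a and Ddit4 2.03-fold to 2.49-fold lower. Leaving out ControlA replicate 2 gave 13 members at least 2-fold lower. Summed over the members, ControlA held 17132 to 19794 CPM and ControlB 9526 to 9923. Experiment, culture, vehicle and sequencing run cannot be told apart in this contrast.

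**Figure D4:**
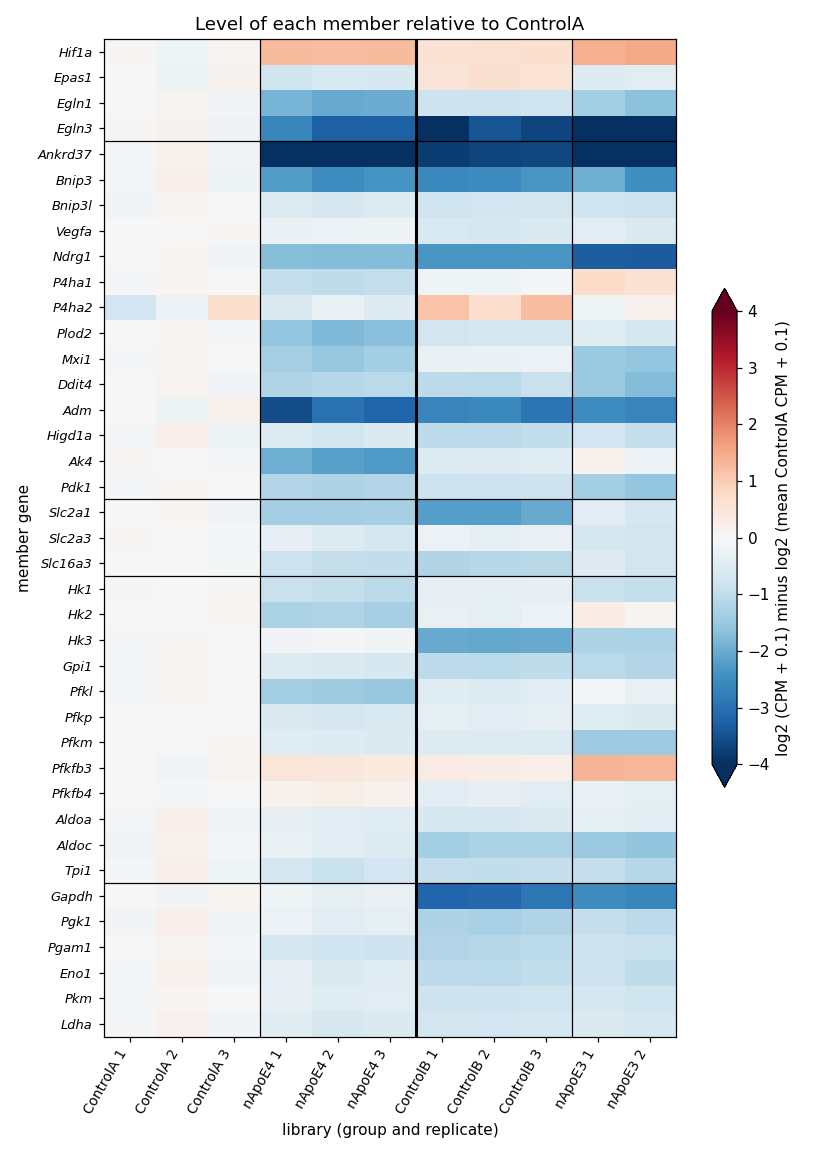
Level of 39 members in each library as the log2 ratio to the mean of ControlA, with 0.1 CPM added to both; colours are capped at -4 and 4, thin lines separate groups and roles, and the thick line separates the experiments. ControlB columns are blue for most members, and the nApoE4 columns are bluest for Ankrd37, Adm and Egln3, while Hif1a and Pfkfb3 are red in every column after ControlA.

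Taken against its own baseline, each fragment's response was then compared with that of the other in 1 model over 11 samples. The response to nApoE4 was lower than that to nApoE3 for 31 of 39 members and higher for 3 (Hif1a, Epas1 and Pfkm), against 13.9% and 14.4% of the 15287 genes tested. By at least 2-fold, 13 were lower and 0 higher, against 3.35% and 2.58% of all genes. Among members well above the floor, the widest differences were in Ankrd37 (log2 -5.44 ± 0.23, adjusted p = 8.65e-09), Slc2a1 (-2.94 ± 0.10, adjusted p = 3.15e-09), Bnip3 (-2.66 ± 0.19, adjusted p = 6.47e-07) and Ak4 (-2.61 ± 0.13, adjusted p = 4.09e-08). P4ha1, the member whose baselines overlapped, differed by -1.76 ± 0.08 (adjusted p = 2.43e-08). Hk2, whose baselines lay 1.24-fold apart, differed by -1.78 ± 0.08 (adjusted p = 1.54e-08). Mxi1, whose baselines lay 1.21-fold apart, differed by -0.14 ± 0.08 (adjusted p = 0.207). Pfkfb3, at 1.22-fold apart, differed by -0.61 ± 0.08 (adjusted p = 0.00011). Slc2a3, at 1.25-fold, differed by -0.07 ± 0.17 (adjusted p = 0.803) and Hk1, at 1.29-fold, by -0.40 ± 0.08 (adjusted p = 0.00184). The members with the closest baselines thus ranged from small to large differences. The part of the baselines in these differences was not tested. Mxi1, Slc2a3, Aldoc, Pfkfb4 and P4ha2 did not pass. Both sets of controls enter this difference, and they are the samples whose contrast led to the list.

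Of 40 other genes of the HIF pathway, 30 were tested with nApoE4, where 9 rose and 16 fell, and 32 with nApoE3, where 16 rose and 8 fell. Over all genes, 28.6% rose and 28.6% fell with nApoE4, and 33.1% rose and 34.6% fell with nApoE3. The response to nApoE4 was lower than that to nApoE3 for 20 of 32 of these genes and higher for 2, against 13.9% and 14.4% of all genes, and by at least 2-fold it was lower for 8, against 3.35%. The direction was that seen in the members, but this list too was drawn up with earlier results of these data known. Its responses use the same untreated samples, and a high level in ControlA enters them as well. The shared direction is therefore a description and no test. Nos2, the inducible nitric oxide synthase, was at 0.517 to 0.691 CPM in ControlA and 38.4 to 44.4 with nApoE4, and at 0.156 to 0.194 in ControlB and 37.6 to 61.6 with nApoE3. Zfp395 fell with both, from 38.4 to 43.0 CPM down to 2.47 to 2.90 with nApoE4 and from 22.8 to 25.4 down to 1.84 to 2.22 with nApoE3. Bhlhe40, a repressor of the circadian and hypoxic programmes, fell 5.62-fold with nApoE4 (adjusted p = 3.56e-09). Ppp1r3b, which directs a phosphatase to glycogen, fell 5.11-fold with nApoE4 (adjusted p = 1.03e-08). Bhlhe40 and Ppp1r3b also fell with nApoE3, with log2 fold changes of -1.37 and -0.31 (adjusted p = 1.54e-11 and 0.0124). Hmox1, the haem-degrading enzyme, rose 6.38-fold with nApoE3 (adjusted p = 2.27e-11). Hmox1, Hilpda (a lipid droplet protein) and Nos2 were among the genes with the widest differences between the responses. These were -3.28 ± 0.14, -2.53 ± 0.16 and -2.07 ± 0.52 on the log2 scale, the response to nApoE4 being the lower each time. Hmox1 and Hilpda fell with nApoE4 (log2 -0.59 and -1.49, adjusted p = 0.000183 and 2.21e-06). Hilpda rose with nApoE3 (log2 1.03, adjusted p = 1.66e-07). Nos2 rose with both, its treated levels overlapped between the fragments, and its untreated levels were under 1 CPM.

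Of 29 other glycolysis genes, 19 were tested with nApoE4 (4 rose, 5 fell) and 20 with nApoE3 (6 rose, 7 fell), against the same shares of all genes, 28.6% each way with nApoE4, and 33.1% higher and 34.6% lower with nApoE3. Their responses to nApoE4 were lower than those to nApoE3 for 2 and higher for 3 of 20, both 1 without nApoE3 replicate 1. The shares over all genes were 13.9% lower and 14.4% higher, so the 2 and 3 of 20 lie near the background. Slc2a6, a sugar carrier of lysosomes in inflammatory macrophages, rose with both fragments. It went from 23.4 to 27.5 CPM in ControlA to 423 to 438 with nApoE4. In the second experiment it went from 35.5 to 37.0 in ControlB to 229 to 248 with nApoE3. The rise was 17.1-fold (adjusted p = 4.23e-10) and 6.52-fold (adjusted p = 2.03e-14). The lactate and pyruvate carrier Slc16a1 fell 1.58-fold with nApoE4 (adjusted p = 8.51e-06). Its log2 fold change with nApoE3 was -0.10 (adjusted p = 0.00443). Slc2a8 fell 1.57-fold and 2.17-fold (adjusted p = 4.97e-05 and 9.49e-07). Galm fell 1.37-fold with nApoE4 (adjusted p = 0.000118) and had a log2 fold change of -0.23 with nApoE3 (adjusted p = 0.000418). With nApoE3 Bpgm fell 1.47-fold (adjusted p = 4.95e-05) and Eno4 rose 1.42-fold (adjusted p = 0.00545). At the entry of pyruvate into the mitochondria, 12 of 13 genes were tested in each comparison. With nApoE4 3 rose and 3 fell, against 28.6% each way over all genes. With nApoE3 1 rose and 9 fell, against 33.1% and 34.6% of all genes. The 9 became 5 in the fit of all 11 samples. The response to nApoE4 was higher for 5 of the 12, for 1 without nApoE3 replicate 2, for 2 without nApoE3 replicate 1 or ControlB replicate 1, and for 3 without ControlA replicate 1, nApoE4 replicate 3 or ControlB replicate 2. For comparison, 14.4% of all genes had a higher response to nApoE4. Dld, a subunit of the dehydrogenase complex, rose with both (1.72-fold and 1.31-fold, adjusted p = 1.71e-05 and 1.56e-08). Pdk2, a paralogue of Pdk1, fell 2.57-fold and 3.41-fold (adjusted p = 0.000147 and 5.48e-05), and the opposing phosphatase Pdp1 fell 1.67-fold and 2.37-fold (adjusted p = 9.07e-05 and 2.35e-07). In the pentose phosphate pathway, 1 of 7 tested genes rose with nApoE4, against 28.6% of all genes. With nApoE3 3 rose and 1 fell, against 33.1% and 34.6% of all genes. Pgd, which yields NADPH, was the gene that rose with both (1.38-fold and 1.40-fold, adjusted p = 0.00204 and 7.72e-06).

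Several small calls depended on the test or on 1 library. Under DESeq2's Wald test, the nApoE3 calls of Bnip3, Tpi1, Eno1 and Ldha did not pass (adjusted p = 0.201, 0.238, 0.148 and 0.154). Tpi1 lost its call in 8 alternatives, among them edgeR with DESeq2 size factors, at least 10 counts in every sample and thinned counts (adjusted p = 0.0562, 0.0633 and 0.0646). The fit of all 11 samples ended the nApoE3 calls of Bnip3, Vegfa, Higd1a, Gpi1, Aldoc, Tpi1, Eno1, Pkm and Ldha (adjusted p from 0.0564 to 0.45). Without nApoE3 replicate 1, the log2 fold changes with nApoE3 were 0.034 for Bnip3, 0.054 for Vegfa, 0.086 for Higd1a, 0.016 for Eno1, 0.026 for Pkm and 0.011 for Ldha, and none passed (adjusted p = 0.752, 0.316, 0.163, 0.666, 0.281 and 0.728). Egln3 then passed (adjusted p = 0.0219). Without nApoE3 replicate 2, Gpi1, Pfkp and Tpi1 lost the call (adjusted p = 0.346, 0.0627 and 0.616) and Plod2 gained it (adjusted p = 0.00184). Leaving out ControlB replicate 1 ended the calls of Bnip3, Vegfa, Gpi1, Tpi1, Eno1, Pkm and Ldha (adjusted p from 0.0579 to 0.125) and gave those of Egln3 and Bnip3l (adjusted p = 0.0325 and 0.0474). Leaving out ControlB replicate 2 ended those of Bnip3, Vegfa, Eno1, Pkm and Ldha (adjusted p from 0.0591 to 0.137), and ControlB replicate 3 those of Gpi1 and Tpi1 (adjusted p = 0.0734 and 0.107). With nApoE4, Pfkfb4 did not pass without ControlA replicate 1 or nApoE4 replicate 2 or 3 (adjusted p = 0.0615, 0.0857 and 0.0583), nor Pgk1 without nApoE4 replicate 2 or 3 (adjusted p = 0.0651 and 0.0764). Of the differences between the responses, that of Epas1 did not pass when any 1 of 8 libraries was left out (adjusted p from 0.0519 to 0.143). That of Egln3 did not pass without nApoE4 replicate 2 or 3, ControlB replicate 1 or nApoE3 replicate 1 (adjusted p = 0.0513, 0.0504, 0.0505 and 0.559). Within groups, members also moved together, with nApoE4 replicate 1 the highest of its group for 28 of 39 members, against 29.6% of all genes, and ControlB replicate 3 for 28 of 39, against 34.2%.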

How the data were processed

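RNA of 11 BV2 samples was sequenced as single-end reads of 75 bases. The authors trimmed reads with Trim Galore 0.5.0, checked them with FastQC 0.11.8, mapped them to GRCm38.p6 with HISAT2 2.1.0 and counted them on genes with HTSeq 0.11.0. They deposited raw counts per gene symbol without normalization, and the annotation release, strand setting and overlap mode are not given in the sources used here. Groups were taken from the sample labels. The rows of HTSeq that name no gene were left out of library sizes and tests. In the nApoE4 experiment 76.03% to 77.42% of tallied reads were counted on genes.

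Treated samples were set against the controls of their experiment in edgeR 4.0.16 (R 4.3.3), using filterByExpr, TMM factors and the quasi-likelihood F test. P-values were adjusted by Benjamini-Hochberg over all genes tested, with a threshold of 0.05. The difference of the responses was a contrast of 4 group means over 11 samples. Standard errors are approximate and were taken as the absolute log2 value over the root of F. CPM values use TMM factors over the 11 samples. Exon lengths for levels per kilobase and shared 75-base windows came from the GENCODE annotation of GRCm38, and promoter sequences from RefSeq (GRCm38.p6). Exon length was that of all annotated exons of a gene merged, and windows were taken from its longest coding transcript.

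Members and gene lists were chosen with earlier results of these data known. Values in every sample are given for members with a 2-fold change past the test, a 2-fold gap between the untreated groups without overlap, opposite calls with the fragments, or a role as HIF subunit or hydroxylase. From each other list at most 4 genes a comparison were named, by size of change among those past the test with at least 1 CPM in some group. A gene that this rule also named is not reported here.

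On simulated counts with 200 changed genes, the test recovered 85.5% for nApoE4 (14052 genes), 88.5% for nApoE3 (14504 genes) and 74% for the difference (14839 genes). Of the genes called, 3.93%, 10.6% and 6.33% had not been changed. The planted changes were larger than the smallest calls with nApoE3, and far fewer genes were changed than were called in the data. These rates therefore do not cover such small calls. Alternatives were DESeq2 1.42.0, its size factors in edgeR, no TMM factors, other count filters, all 11 samples in one fit, a replicate block, counts thinned to 39732710 per library and leaving out each sample.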

Additional observations from a re-analysis of the deposited data

Results flagged for a closer look

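The response to nApoE4 minus the response to nApoE3, on the log2 scale, passed the test of the difference for 34 members. It was positive for Hif1a (0.40), Epas1 (0.36) and Pfkm (0.38). Among the hydroxylases and targets it was -1.28 for Egln1, -2.01 for Egln3, -5.44 for Ankrd37, -2.66 for Bnip3, -0.51 for Bnip3l, -0.35 for Vegfa, -0.74 for Ndrg1, -1.76 for P4ha1, -1.80 for Plod2, -0.53 for Ddit4, -0.79 for Higd1a, -2.61 for Ak4 and -0.58 for Pdk1. The fitted value of -5.59 for Adm rests on counts at or under the floor in the nApoE4 samples and is no bound. For the transporters it was -2.94 for Slc2a1 and -1.43 for Slc16a3. From glucose to the triose phosphates it was -0.40 for Hk1, -1.78 for Hk2, -0.88 for Hk3, -0.50 for Gpi1, -1.76 for Pfkl, -0.48 for Pfkp, -0.61 for Pfkfb3, -0.64 for Aldoa and -0.70 for Tpi1. In the steps to lactate it was -0.78 for Gapdh, -0.61 for Pgk1, -1.04 for Pgam1, -0.57 for Eno1, -0.48 for Pkm and -0.65 for Ldha. Fragment and experiment cannot be told apart in these differences. Both sets of controls enter them, and their contrast led to the list, so the number of members that passed is a description. Several alternative runs ended the calls of Epas1 and Egln3, as given above.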

How the results depend on the processing

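With nApoE4, 2 or 3 members rose and 33 or 34 fell under every alternative run. With nApoE3, 13 to 20 rose and 12 to 16 fell, the fewest rises being in the fit of all 11 samples and without nApoE3 replicate 1. Of the differences between the responses, 29 to 31 members were lower and 2 or 3 higher. The same-numbered samples did not deviate together (correlations of -0.338 to -0.002 over genes), so the numbers were not taken as pairs. With the replicate block, 1150 genes had a higher and 1157 a lower response to nApoE4, against 2208 and 2123 without it, and 2 and 30 members did. A single value changed sign, the difference for Slc2a3, which ran from -0.18 to 0.017 over the samples left out in turn, the latter without nApoE4 replicate 3. With all 11 samples in one fit, 1 pentose phosphate gene fell with nApoE4, and with nApoE3 1 rose and 0 fell there and 5 pyruvate dehydrogenase genes fell. Over samples left out in turn, the pentose phosphate genes that rose with nApoE4 numbered 1 to 2 and those that fell 0 to 1, and pyruvate dehydrogenase genes that rose with nApoE3 numbered 1 to 2. Members that fell with nApoE4 and rose with nApoE3 numbered 10 with all 11 samples in one fit and 10 to 17 over samples left out in turn. In that fit of 11 samples, 2 targets, and 3 enzymes from Gapdh to lactate, rose with nApoE3, and 3 enzymes from glucose to the triose phosphates fell. Over samples left out in turn these counts ran from 2 to 6, 3 to 6 and 3 to 6. In the latter stretch 1 enzyme rose with nApoE4 with the replicate block and with at least 1 count, and 1 to 2 over samples left out. For the difference, 0 pyruvate dehydrogenase genes were higher with the replicate block and 1 to 6 over samples left out, where 0 to 1 were lower. Of the other glycolysis genes 1 was lower with the block and with at least 1 count, and 1 to 3 were lower and 1 to 4 higher over samples left out, where 0 to 1 pentose phosphate genes were lower. Between the untreated groups, 0 to 1 members were at least 2-fold higher, with 0 without ControlA replicate 1, 0 without TMM factors and 0 where every sample had to hold 10 counts. The DESeq2 values and the fit of 11 samples for the untreated groups, and the counts by role, for opposite responses and for the differences of other lists, were added after the data were seen. The cause of these changes was not tested. Depth limits Egln3, P4ha2, Adm and Eno2, which lay near the floor in some or all groups.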
